A study of Drosophila melanogaster with 3 samples.

Results

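Mnt and Tlk are neighbouring genes on the X chromosome of Drosophila melanogaster, transcribed in the same direction, at which ChIP-seq of the nuclear receptor Eip75B gave a dense run of binding summits. The locus was taken from the start of Mnt to the end of Tlk with 5 kb on either side, chrX:3666801-3794770 on the dm6 build (127970 bp). It held 41 of the 7803 summits in the authors' optimal list, the peaks left after the ranks of the replicates were compared by IDR (irreproducible discovery rate). The genes were chosen by these summit counts in the optimal list, so the counts, signals, ranks and spacings below describe the locus and were not tested.

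All samples were of 1 kind: 3 biological replicates of whole prepupae of mixed sex, of unknown age, from the Eip75B-MiMIC-GFP line. In this line an exon coding for eGFP sits in an intron of Eip75B, and per the sample descriptions anti-GFP antibody pulled down the fusion protein from chromatin sonicated to between 200 and 800 bp. The antibody field of the same labels reads Eip75B, which leaves unsettled whether untagged Eip75B was also precipitated. There was no second genotype, stage or treatment among the samples. Whole animals were used, so the cells in which a summit was occupied cannot be told, and the sources used here do not say which isoforms of Eip75B carry the tag.

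Eip75B (E75) is a heme-binding nuclear receptor whose gene is switched on by the moulting hormone ecdysone, and it recognises an extended AGGTCA site also bound by the receptor Hr3. Mnt is a basic helix-loop-helix leucine zipper protein that pairs with Max and opposes Myc at the E-box CACGTG, and it is known in the fly as a brake on growth. Tlk is the Tousled-like kinase, a nuclear protein kinase whose known substrate is the histone chaperone Asf1 and which acts in chromatin assembly and the cell cycle.

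Short stretches of the reference sequence around some of the summits are given as examples. Each line gives 101 bases of the plus strand of X, centred on the summit (50 bases on either side), from RefSeq Release 6 (dm6). Capitals mark the motifs searched for, on either strand. The first 4 were chosen for their signal or place: the strongest summit of the locus, in Tlk (chrX:3742165-3742265), the strongest of Mnt (chrX:3682301-3682401), the next of Mnt (chrX:3687072-3687172) and the only one of Mnt within 1 kb of a start (chrX:3687951-3688051). None of these 4 held a motif, which was also so for most summits of the locus.
Tlk summit 3742215: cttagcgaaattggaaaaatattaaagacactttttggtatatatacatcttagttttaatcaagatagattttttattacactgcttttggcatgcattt
Mnt summit 3682351: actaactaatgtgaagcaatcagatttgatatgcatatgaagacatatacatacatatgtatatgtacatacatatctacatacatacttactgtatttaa
Mnt summit 3687122: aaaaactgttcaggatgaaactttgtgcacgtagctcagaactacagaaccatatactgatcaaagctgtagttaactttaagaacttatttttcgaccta
Mnt summit 3688001: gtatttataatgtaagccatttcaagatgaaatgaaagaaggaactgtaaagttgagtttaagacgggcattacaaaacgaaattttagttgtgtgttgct
The other 4 were chosen for a motif: the extended AGGTCA site in an intron of Mnt (chrX:3683450-3683550) and in an intron of Tlk (chrX:3740405-3740505), AGGTCA with GAGAG repeats in Rala, the gene between them (chrX:3718734-3718834), and the E-box within the microRNA gene mir-4962 in Tlk (chrX:3777392-3777492).
Mnt summit 3683500: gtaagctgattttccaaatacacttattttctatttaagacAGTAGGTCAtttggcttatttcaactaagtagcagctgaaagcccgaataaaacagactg
Tlk summit 3740455: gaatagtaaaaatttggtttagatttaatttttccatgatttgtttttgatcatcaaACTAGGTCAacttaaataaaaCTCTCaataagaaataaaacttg
Rala summit 3718784: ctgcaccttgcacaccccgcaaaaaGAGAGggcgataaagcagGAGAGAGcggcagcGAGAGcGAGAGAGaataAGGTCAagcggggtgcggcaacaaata
Tlk summit 3777442: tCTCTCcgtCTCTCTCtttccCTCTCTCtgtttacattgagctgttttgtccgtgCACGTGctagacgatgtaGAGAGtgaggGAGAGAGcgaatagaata

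Along the locus the 41 summits were uneven (the map of signal along the locus). Mnt held 20, Tlk 19, Rala 1, and 1 lay between the left edge and Mnt. By annotated feature 38 were in introns, 2 in 5′ UTRs of Tlk and 1 between genes, and none was in a coding exon. The locus makes up 0.0956% of the 133.881 Mb of the 6 arms and held 0.525% of the optimal summits, or 3.20 per 10 kb, against 0.583 per 10 kb over the 6 arms and 0.596 per 10 kb over X. On the left the next optimal summit lay 120485 bp outside the edge, and AstA-R1, the 92189 bp gene on that side, a receptor for an allatostatin peptide, held 0. To the right the last summit lay 13605 bp inside the edge and the next one 40582 bp beyond it.

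**Figure D1:**
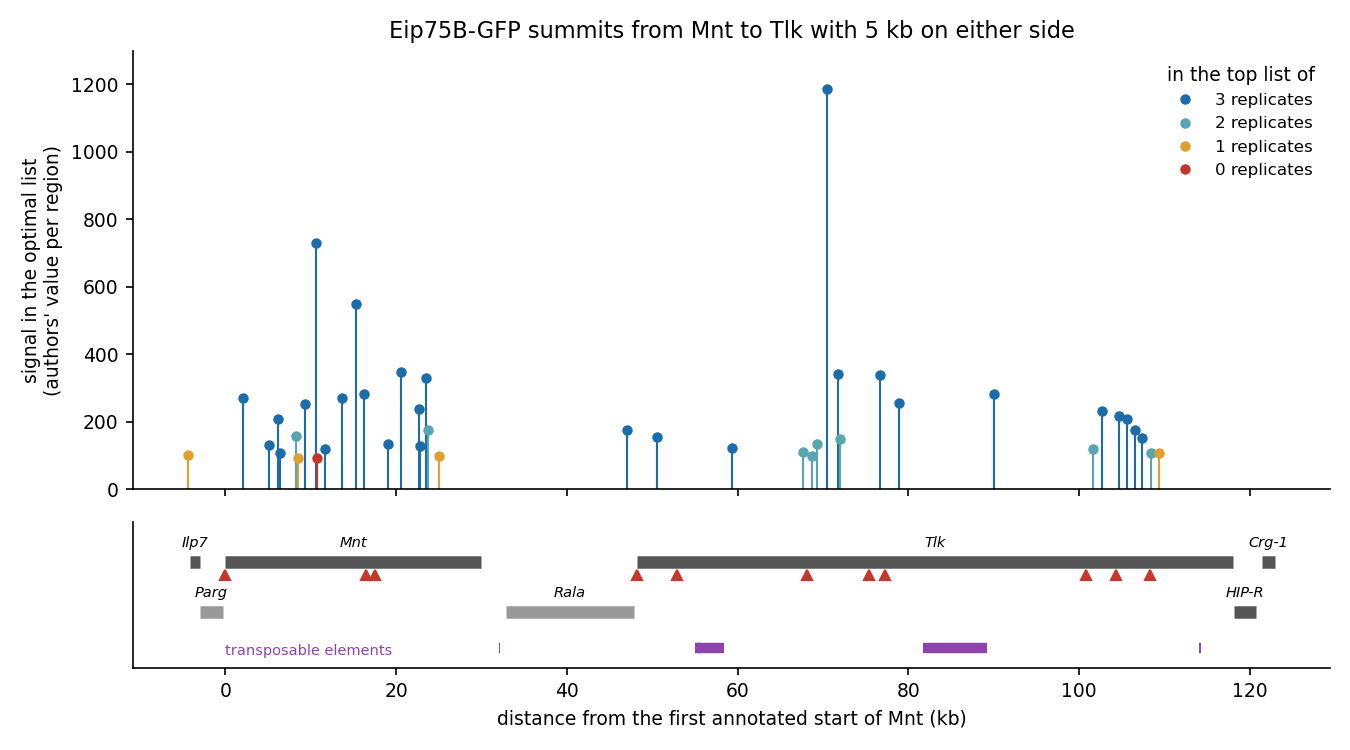
Signal of the 41 optimal summits (authors' value per region, in the optimal list) against distance from the first annotated start of Mnt in kb, coloured by the number of replicates whose top list held the summit, with genes (dark, plus strand; light, minus strand), annotated starts of Mnt and Tlk (triangles) and transposable elements below. The highest line, at 70.4 kb, is the Tlk summit with a signal of 1185, and blank stretches lie over Rala and over the element near 85 kb.

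Each replicate was described by its top list, the 7803 regions with the highest signal out of 30000 deposited, so that all lists compared had the length of the optimal list. The top lists placed 35, 39 and 39 summits in the locus in replicates 1, 2 and 3, a mean of 37.7 ± 2.31 (SD, n = 3). Replicate 1 had the fewest, and the 3 values differed by 4 summits at most. The locus took 0.462%, 0.504% and 0.504% of the summed signal of the 3 top lists (0.490% ± 0.0243, SD, n = 3) and 0.510% of that of the optimal list. Its share of the signal was thus close to its share of the regions.

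Mnt (FBgn0023215, chrX:3671801-3701672, plus strand, 29872 bp) has 10 annotated transcripts from 3 starts. All 20 of its optimal summits were intronic, which gives 6.70 summits per 10 kb. Its top-list summits numbered 16, 18 and 18 in replicates 1 to 3, or 5.80 ± 0.387 per 10 kb (SD, n = 3). Between the first start and the second lay 13 summits (7.91 per 10 kb), with 11, 12 and 12 in the top lists, and downstream of the second start lay 7 (5.21 per 10 kb), with 5, 6 and 6. Both parts of the gene were therefore occupied in every replicate, the long upstream part more densely.

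The strongest summit of Mnt, at 3682351, lay 5884 bp upstream of the second start. Its signal was 729 in the optimal list, where it ranked 271 of 7803, and 213, 286 and 229 in the replicates, where it ranked 421, 172 and 325 (306 ± 126, SD, n = 3). The next, at 3687122 and 1113 bp upstream of the same start, had a signal of 549 at rank 547 and replicate ranks of 655, 462 and 491 (536 ± 104, SD, n = 3). Each of these 2 was among the 1000 strongest regions of every replicate. Signals are the peak caller's own values, so they were compared within a list and ranks were used between lists.

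Of the 3 starts of Mnt, 1 had an optimal summit within 1 kb. The second start, shared by 5 transcripts, had a summit 234 bp upstream, at 3688001, with a signal of 282 (rank 1766) and replicate ranks of 2446, 1623 and 1362. No optimal summit lay within 1 kb of the first start, used by 1 transcript, whose nearest summit was 2063 bp downstream at 3673864, with a signal of 270 and replicate ranks of 1899, 2768 and 1449. The third start, used by 4 transcripts, had its nearest summit 1362 bp away. In Mnt 1 of 20 summits was thus within 1 kb of a start of any gene (5.00%).

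Further downstream, in the last part of the gene, 2 strong summits stood out. The summit at 3692302 had a signal of 347 and replicate ranks of 1129, 1365 and 1459. The summit at 3695276 had a signal of 331 and replicate ranks of 1091, 1181 and 1653. A weaker neighbour, 200 bp to its right, had a signal of 177 and ranks of 10283, 3872 and 1653, where the last rank belongs to a region of replicate 3 that holds both summits. The summit with the extended AGGTCA site, at 3683500, was among the weaker ones, with a signal of 119.5 and ranks of 7675, 6739 and 4647. The lowest summit of the whole locus also lay in Mnt, at 3682550 and 199 bp from the strongest. Its signal was 94.3 (rank 7652), and its regions ranked 19381, 13601 and 18938, outside the top list of every replicate. The 11 summits of Mnt not named so far had signals from 94.5 to 270.

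Between Mnt and Tlk lies Rala (FBgn0015286, chrX:3704610-3719635, minus strand), the gene of a Ras-like small GTPase. The widest gap between neighbouring summits of the locus, 22023 bp, covered most of it. Its single summit, at 3718784, lay in an intron 851 bp downstream of the start of Rala and 1223 bp from the first start of Tlk. It had a signal of 175 (rank 3569) and replicate ranks of 4808, 4128 and 3029, so each top list held it. The whole lists of 30000 regions, which include background, placed 8, 5 and 8 summits in Rala, so most of the regions called there were weak. On the left flank the summit at 3667360, with a signal of 101, lay 261 bp upstream of Ilp7, the gene of an insulin-like peptide, and replicate 3 alone held it in its top list. The bodies of Ilp7, Parg (poly(ADP-ribose) glycohydrolase), HIP-R (related to an Hsp70-interacting protein) and Crg-1 (a forkhead-domain protein) held 0 optimal summits and 0 top-list summits in each replicate. The non-coding genes lncRNA:CR45102 and lncRNA:CR44117 and the pseudogene CR42499 also held none.

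Tlk (FBgn0283657, chrX:3720007-3789770, plus strand, 69764 bp) has 14 annotated transcripts from 8 starts. Its 19 optimal summits, 17 in introns and 2 in 5′ UTRs, amount to 2.72 per 10 kb. The replicates' top lists held 18, 19 and 18 summits, or 2.63 ± 0.0828 per 10 kb (SD, n = 3). Tlk therefore had about as many summits as Mnt but spread over a longer gene, and they fell into clusters.

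The strongest summit of the locus lay in the first cluster, around the third start, at 3742215 and 2318 bp downstream of that start. Its signal was 1185 (rank 67 in the optimal list) and 391, 384 and 411 in the replicates, where it ranked 82, 64 and 64 (70.0 ± 10.4, SD, n = 3). It was the only summit of the locus among the 100 strongest regions of each replicate. The summit at 3743598, 1383 bp to its right, had a signal of 343 and ranked 1342, 1276 and 1121. Near the fifth start, 585 bp upstream, the summit at 3748476 had a signal of 340 and ranks of 848, 4225 and 1539. The replicate 2 region that held it ranked well below the others, and its own summit lay 114 bp away. The Tlk summit with the extended AGGTCA site, at 3740455, was weak, with a signal of 99.0 and ranks of 5236, 13417 and 4577.

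Outside the clusters the optimal summits of Tlk were fewer, with wide gaps. Near its upstream end the summit at 3722402 had a signal of 156 and ranks of 3893, 4691 and 4910, and gaps of 8675 and 8323 bp lay on either side of the next one, at 3731077. The gap after 3750696 measured 11128 bp and spanned an annotated LTR retrotransposon of 7498 bp, in which each replicate's whole list placed 0 summits. The other annotated transposable elements of the locus, from 44 to 3104 bp long, held 0 summits in each whole list, which says little for the shortest. The sources used here do not say how reads from repeats were handled, and the part of repeats in the gaps was not tested. Between this gap and the next, of 11616 bp, stood a single summit at 3761824, with a signal of 282 and ranks of 2064, 4140 and 944. The gaps were not empty in the replicates. The top lists of replicates 1 to 3 placed 0, 2 and 1 summits in the gap of 8675 bp. They placed 1, 0 and 0 in that of 11128 bp, and 1, 1 and 1 in that of 11616 bp.

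The second cluster lay around the last 3 starts, with 8 summits from 3773440 to 3781165. Between the seventh start and the eighth it reached 9.79 summits per 10 kb, with 4, 5 and 5 in the top lists. The 2 summits in 5′ UTRs belong here: 3776438 had a signal of 218 and replicate ranks of 5774, 1588 and 2465, and 3780165, 22 bp from the last start, had a signal of 108 and ranks of 6849, 9015 and 6216. The summit at 3777442 fell inside mir-4962 (chrX:3777382-3777505), with a signal of 207, and the regions holding it ranked 3474, 3208 and 2466. The summits of replicates 2 and 3 also lay inside the microRNA gene, whereas that of replicate 1 was 69 bp from the optimal summit and outside the gene. The optimal summit lay 11 bases from the 5′ arm product and 14 bases from the 3′ arm product. These products read as follows at their RefSeq coordinates (chrX:3777408-3777431 and chrX:3777456-3777478), with the seed, bases 2 to 8, in capitals.
mir-4962 5′ arm: uUUCCCUCucucuguuuacauuga
mir-4962 3′ arm: gACGAUGUagagagugagggaga
Of the 8 GAGAG matches at this summit, 5 overlap a stretch from which a product comes, 2 at the 5′ arm and 3 at the 3′ arm, and the other 3 lie before the 5′ arm.

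Of the 8 starts of Tlk, 5 had an optimal summit within 1 kb, with 2 summits at the third start and 1 each at the fifth to the eighth. The first start, which 6 transcripts use, had none within 1 kb, nor had the second and the fourth. In all, 6 of the 19 Tlk summits (31.6%) were this close to a start, and over the locus 9 of 41 were (22.0%), against 42.5% of the 7762 optimal summits outside it. The median distance to the nearest start of any gene was 2318 bp in the locus and 1598.5 bp outside it. The Tlk summits whose signal is not given above had signals from 108 to 257.

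All 41 summits lay in a region of the whole list of every replicate, against 95.7% of the optimal summits outside the locus. The stricter top lists of all 3 replicates held 28 of 41 (68.3%, exact Clopper-Pearson 95% interval 51.9 to 81.9%), against 65.2% outside. The 28 include the Mnt summit at 3694611, which in each replicate lay in the same region as its neighbour at 3694412. With a replicate summit required within 100 bp the share in the locus was 65.9%. Of the other summits, 8 were in the top lists of 2 replicates, 4 in that of 1, and 1 in none. Mnt had 15 of 20 in all 3 top lists and Tlk 12 of 19. The share followed the signal: it was 11 of 11 in the strongest quartile of the optimal list, 9 of 10, 7 of 11 and 1 of 9 in the next ones, against 95.9%, 93.1%, 59.9% and 11.9% outside. At a given signal the locus was thus close to the rest of the list. The intervals cover counting error only, and summits of 1 locus are not independent of each other.

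**Figure D2:**
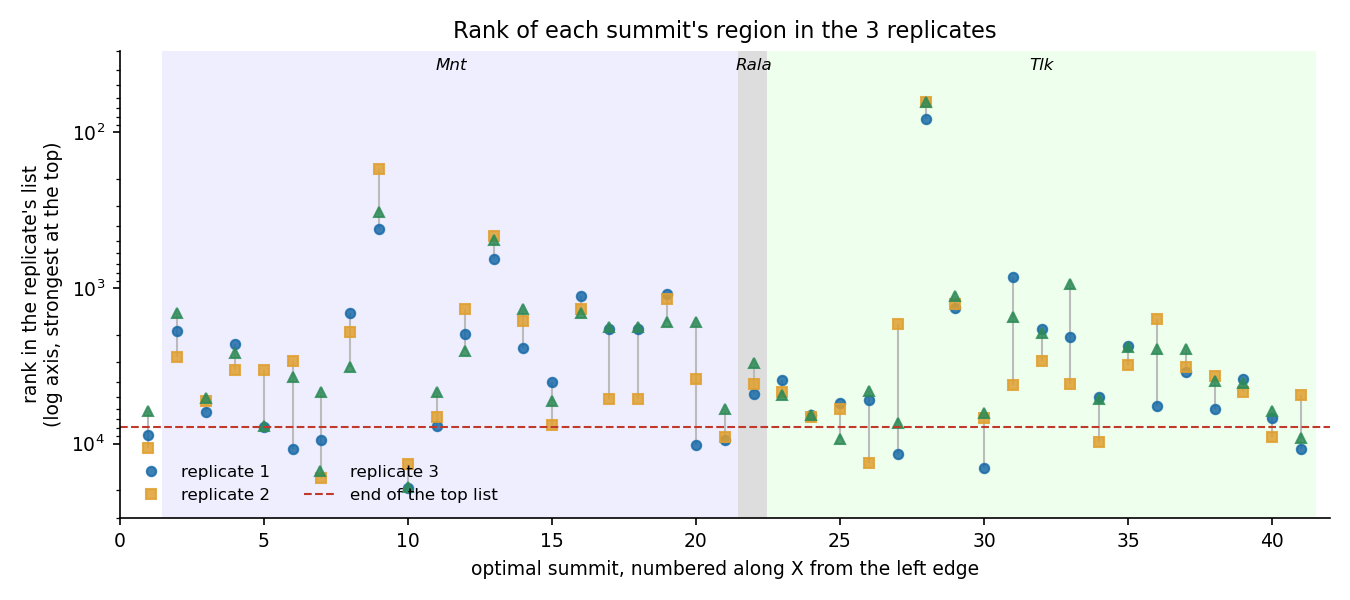
Rank of the region holding each of the 41 summits in each replicate's list (log axis, strongest at the top), with summits numbered along X and the hosts Mnt, Rala and Tlk shaded; the dashed line marks the end of the top list at 7803. Number 28, the Tlk summit at 3742215, stands alone with ranks of 82, 64 and 64, and most points below the line belong to summits with at least 1 other replicate above it.

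The replicates ordered the summits alike but not identically. Spearman's rho of the ranks across the 41 summits, given as a description, was 0.612 for replicates 1 and 2, 0.806 for 1 and 3, and 0.692 for 2 and 3. These points share a locus, and a few members share a replicate region (2, 4 and 4 members in replicates 1, 2 and 3). Replicate 1 left 9 members outside its top list, replicate 2 left 7 and replicate 3 left 3. The widest range was at a weak summit of Mnt, 3680322, which ranked 9485, 16606 and 4651. In Tlk the summit at 3741113 ranked 11743, 1705 and 7419, whereas that at 3731077 ranked 6538, 6726 and 6534. In every replicate 3 members were within rank 1000, 6 within rank 2000 and 10 within rank 3000. Summits of replicate regions lay a median of 28, 24 and 38 bp from the optimal summit, and at most 183, 208 and 162 bp. Within 50 bp lay 32, 30 and 27 of the 41. A replicate rank is thus that of the region holding the optimal summit, whose own summit can lie elsewhere.

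**Figure D3:**
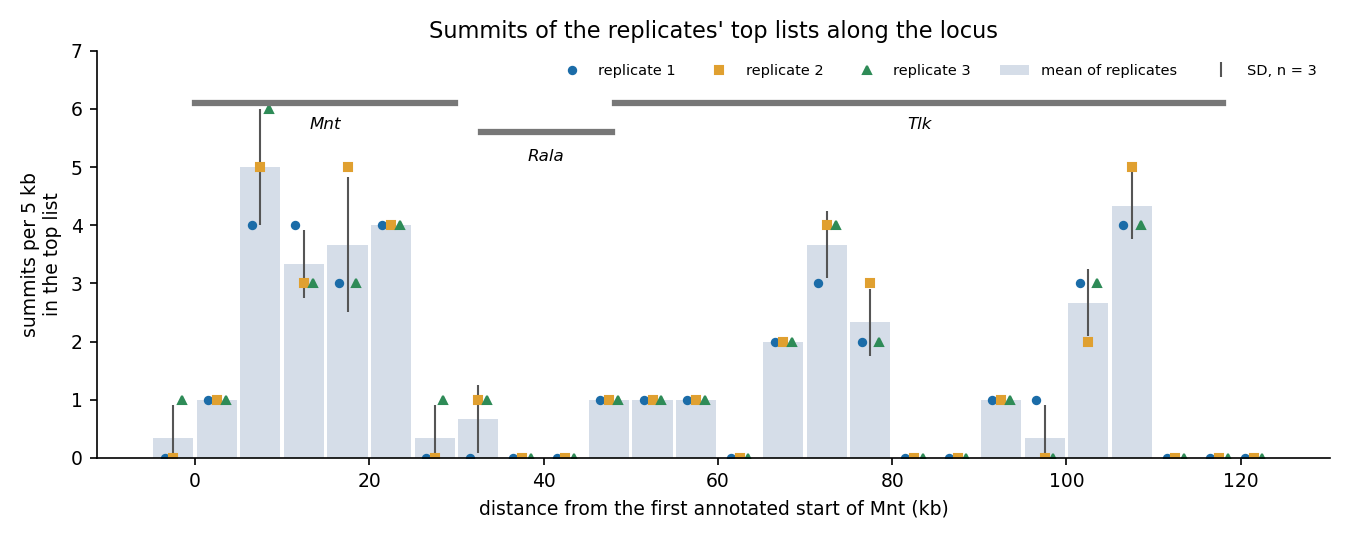
Summits per 5 kb in the top list of each replicate (points), with the mean (bars) and SD (lines, n = 3), against distance from the first annotated start of Mnt in kb. The means peak at 5.00 in Mnt, between 5 and 10 kb, and at 4.33 in Tlk, between 105 and 110 kb, and bins over Rala are at 0 in all 3 replicates from 35 to 45 kb.

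Summits of the locus were closely spaced. The median distance between neighbours was 1188 bp (from 199 to 22023 bp), with 27 of 40 under 2 kb (67.5%), against a median of 5150 bp and 29.7% under 2 kb on the rest of X. Within Mnt the median was 983 bp and within Tlk 1078.5 bp. In the replicates' top lists the median spacing in the locus was 1448 ± 111 bp (SD, n = 3). Pairs under 300 bp apart numbered 6, with 5 in Mnt and 1 in Tlk, and their spacings of 199 to 246 bp began at the smallest spacing found in the whole optimal list, 199 bp. In each of these pairs the left summit was the stronger. Whether such pairs are separate sites or 1 site split in the calling was not tested.

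**Figure D4:**
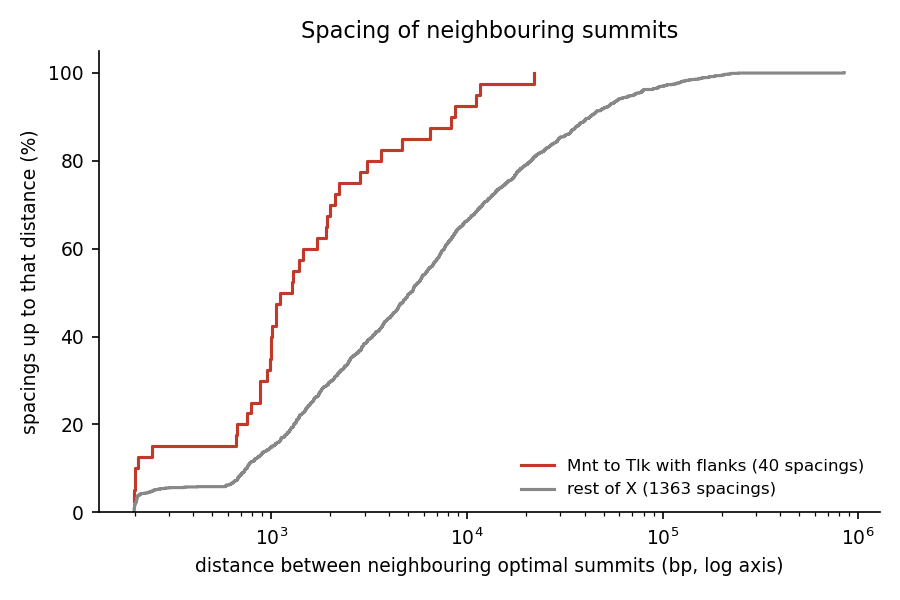
Share of neighbouring optimal summits (%) up to a given distance in bp (log axis), for the 40 spacings from Mnt to Tlk and the 1363 on the rest of X. The locus curve lies to the left, with 67.5% of spacings under 2 kb against 29.7%.

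By signal the summits of the locus were spread over the list. The median signal was 175 in the locus and 164 outside it, and the quartiles of the optimal list by signal held 11, 10, 11 and 9 of its summits from the strongest down. Mnt placed 7 summits in the strongest quartile and Tlk 4. The locus was chosen for the number of its summits, and their median height was near that of the rest. The members just inside the list were those with a signal of 94.3 and 94.5, and the strongest pooled region of the locus just outside it had 90.2 (rank 8029 in the pooled list).

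Set beside other protein-coding genes, Mnt ranked 5 and Tlk 6 by the number of optimal summits in the gene body. Tlk shared its place with heca, at 19 each. Above Mnt were Eip75B itself, first with 38 such summits, kirre (28), sbb (25) and Tet (21). At least 1 such summit was present in 15.2% of the 13945 protein-coding genes. Per length in the optimal list, Mnt was second of the 1977 genes of at least 10 kb and Tlk was in place 98, against a median of 0.333 summits per 10 kb. Among the 1133 other genes of 0.5 to 2 times its length the median was 0.432 and the highest value was 5.89, in HmgD, below the 6.70 of Mnt. Among the 512 others of the length class of Tlk the median was 0.334, the highest was 3.94 in E2f1, and Tlk was in place 9 of its class. The 5 densest genes of at least 10 kb were HmgZ (7.71), Mnt (6.70), HmgD (5.89), CG14434 (5.89) and bowl (5.64). Of these 5, by mean density over the replicates' top lists, HmgZ (6.43) and CG14434 (5.89) were above Mnt (5.80), and bowl (5.37) and HmgD (4.58) below it. Kdm2, in place 6 in the optimal list with 5.58, was also above Mnt by this mean (5.89). A place of Mnt among all genes by this mean is not given here. CG14434 is in the length class of Mnt, so the place of Mnt in both rankings depends on the list. With overlapping regions merged Mnt had 5.69 optimal summits per 10 kb. Merged values of the other dense genes are not given here, so 5.69 cannot be ranked against their unmerged ones. HmgZ and HmgD, which code for HMG-box chromosomal proteins, overlap and share 6 summits, and bowl codes for a zinc finger protein of the odd-skipped family.

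**Figure D5:**
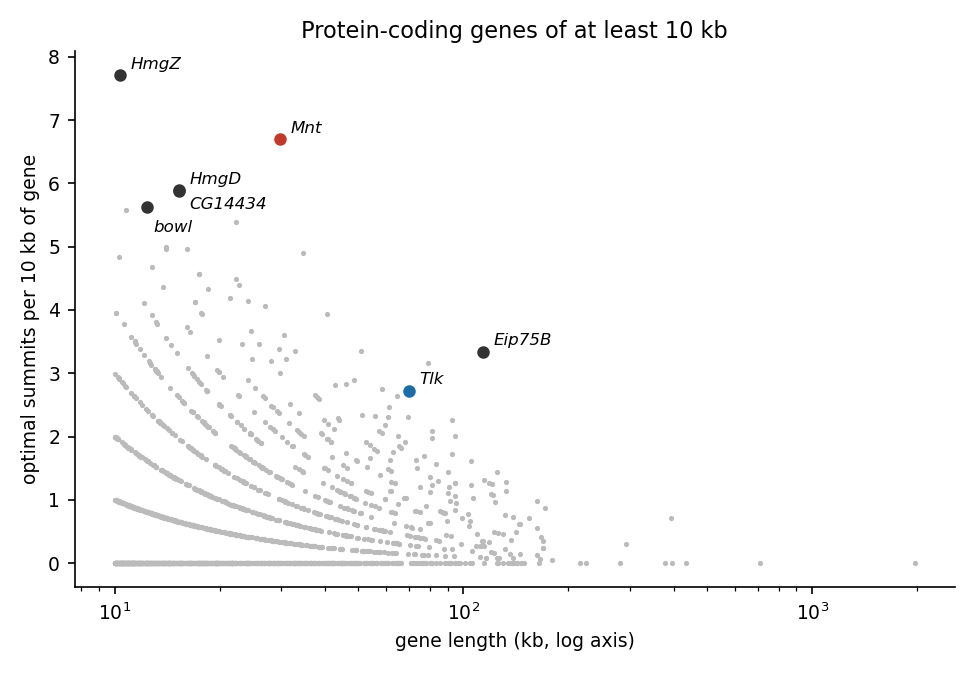
Optimal summits per 10 kb of gene against gene length in kb (log axis) for the 1977 protein-coding genes of at least 10 kb, 1 point a gene. Mnt (red) lies at 6.70, above all longer genes, and Tlk (blue) at 2.72, close to Eip75B at 3.34.

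By mean density over the replicates' top lists, the genes of like length nearest to Mnt (5.80 per 10 kb) were CG14434, also on X, with 5.89 ± 0.654, ckn with 5.14 ± 0.990 and vri with 5.09 ± 0.259 (SD, n = 3). The first of these was within the replicate spread of Mnt. Nearest to Tlk (2.63 per 10 kb) were shn with 2.69 ± 0.0990, Btk with 2.73 ± 0.135 and ush with 2.80 ± 0.155 (SD, n = 3). Of these genes, vri codes for a leucine zipper protein of the circadian clock, shn for a zinc finger protein of Dpp signalling, Btk for a Tec-family kinase and ush for a partner of GATA factors.

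Cut into adjacent stretches of the length of the locus, the 6 arms gave 1042, with a median of 6 optimal summits, 189 without any and at most 37. With the left edge placed at each optimal summit in turn, which was added after these counts were seen, 2 places elsewhere exceeded the 41 of the locus. They were chr3L:696929-824898 with 52 and chr3L:17961743-18089712, which contains Eip75B, with 47.

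The nuclear receptor core AGGTCA, searched on both strands within 50 bp of the summit, was found at 3 of 41 summits of the locus (7.32%, exact Clopper-Pearson 95% interval 1.54 to 19.9%), against 2.49% of the 7762 summits outside. Windows of the same 101 bp between the summits of the locus held it in 17 of 924 (1.84%). The 3 summits were those of Mnt at 3683500, Rala at 3718784 and Tlk at 3740455. TAGGTCA and ANTAGGTCA, which contain it, were present at 2 of them, in Mnt and in Tlk, with 0.721% and 0.271% outside. The core began 6 bp left of the summit in Mnt and 10 bp right of it in Tlk, and both summits were weak. The inverted repeat GTCANTGAC, as bound by the ecdysone receptor, was found at 0 of 41 summits and 0.116% outside. The strongest 2 summits of Mnt and the strongest of Tlk held none of these, as their sequences above show. So few matches leave the shares imprecise, and a match is not evidence of binding.

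GAGAG, the core read by GAGA factor, was present at 10 of 41 summits of the locus (24.4%), against 12.2% outside and 12.2% of the windows between the summits. It was found at 7 of the 19 Tlk summits and 2 of the 20 Mnt summits, and at Rala it occurred 6 times with overlaps in a single window. The E-box CACGTG, the element of Mnt and Myc with Max, was found at 1 of 41 summits (2.44%), that inside mir-4962, against 0.734% outside and 1.41% of the windows between. The Zelda site CAGGTAG was found at 0 of 41 summits, as were the DNA replication-related element TATCGATA, the repeat CACACACA and, for proteins of the GATA family, AGATAAG. Outside the locus 0.361%, 0.876%, 1.77% and 1.67% of summits held these 4, in the same order, so under 1 summit in 41 would hold each at those shares, and the zeros say nothing about the locus. The median GC content was 31.7% in the locus, 32.7% at the other summits and 36.6% in the windows between.

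For comparison with Mnt and Tlk, 9 genes were listed for each. The Mnt list took genes of the Myc-Max network and cofactors. The Tlk list took genes of histone chaperones, chromatin assembly and checkpoint kinases. A summit within 1 kb of a start was called a promoter peak, and 23.6% of the 13945 protein-coding genes had one in the optimal list. In the Mnt list 7 of 9 had one, and the list is too short to read more from it than these counts. Sin3A, a corepressor that binds Mad and Mnt proteins in mammals, had the strongest, with a signal of 413, followed by bigmax, the partner of Mondo, with 311. The ATPases pont and rept, which bind Myc, had 272 and 163. Max had 121, the histone demethylase Kdm5 had 109, and Mondo, a sugar-sensing factor of the same family, had 102. These last 3 were found at the promoter in the top lists of 2 replicates, the other 4 in those of all 3. Myc had 0 promoter peaks but 4 summits in its body, and ash2, a subunit of histone methyltransferase complexes, had none of either kind.

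In the Tlk list 2 of 9 genes had a promoter peak. The checkpoint kinase gene grp, the fly Chk1, had 7 summits in its body and 4 within 1 kb of a start. The strongest of these 4 had a signal of 706 but lay 998 bp from the nearest start, just inside the limit. The other was yem, a partner of Hira in histone H3.3 deposition, with 296, and both were found at the promoter in all 3 top lists. The histone chaperones asf1 and Hira, the 3 subunits of the chromatin assembly factor Caf1 and the kinase mei-41 had 0 promoter peaks and 0 body summits in the optimal list. For the kinase tefu the optimal list had none, while the top lists of 2 replicates had a promoter summit.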

How the data were processed

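The authors deposited lists of regions on the dm6 and dm3 builds, of which the dm6 lists were used: 1 of 30000 regions for each of 3 replicates, 1 for the replicates pooled and the optimal list. Per the labels, the longer lists hold background as well as peaks, as input for IDR. The signal of a region is the peak caller's own value, as the authors deposited it, and was used only within a list. The aligner, the caller, the IDR threshold and the number of reads are not given in the sources. The depth is therefore unknown, and with it the precision of a rank. The optimal list held the 7803 regions of highest signal in the pooled list, so it is not independent of the replicates. No 2 replicate lists shared an identical region with identical signal.

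A summit is the deposited start plus the deposited summit offset, written 1-based. Ranks run from the highest signal. An optimal summit was called found in a replicate when a region of that list held it. Counts were made with Python 3.11.15, numpy 2.4.6, pandas 2.3.3 and scipy 1.17.1, and the counting was tested on simulated regions. Genes and starts came from Ensembl release 115 (13945 protein-coding genes on 6 arms), sequence from RefSeq Release 6. There were 10 motifs. With 1 group, there was no comparison between conditions and no test.

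Named were Mnt and Tlk, the genes in the window and the 3 genes nearest to each in density and of like length. The 5 densest genes of at least 10 kb and the genes of the Mnt list and the Tlk list were also named. HmgD was named also as the highest of its class. E2f1, AstA-R1, Eip75B, Kdm2, heca, kirre, sbb and Tet were chosen after their values were seen. The members and lists were chosen with earlier results of these data known. Alternatives were a stricter list, merged regions, other flanks and list lengths, other motif and promoter distances, and leaving out each replicate.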

Additional observations from a re-analysis of the deposited data

Results flagged for a closer look

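Regions of the pooled list below the optimal list, which the counts above do not use, were looked up in the replicates' top lists. Of the 49 such summits in the locus, 9 lay in a top-list region of at least 2 replicates (18.4%, against 5.41% of the 22148 outside), and 3 of them did so in all 3. Of the 9, 7 lay 199 to 208 bp from an optimal summit, and the other 2 lay at 3704505, between Mnt and Rala, and at 3744727 in Tlk. A region of 444 bp, the commonest width in the locus, centred on the optimal summit would hold such a near neighbour too. The share can therefore be raised by dense optimal summits alone, and whether the 7 are sites of their own was not tested.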

How the results depend on the processing

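Merging overlapping regions, widening or dropping the flanks and changing the promoter or motif distance moved counts and shares by at most 1.5 times. With only the 3901 strongest regions of the optimal list the locus held 21 summits, Mnt 3.68 and Tlk 1.29 per 10 kb, and the median spacing was 2165 bp; merged regions gave 1419.5 bp. Lists of 15000 and 30000 regions gave means of 59.3 and 86.7 replicate summits and 0.449% and 0.402% of the signal. The share found in every replicate was 46.3%, 95.1% and 100% with lists of 5000, 15000 and 30000 regions. Optimal summits in the top lists of both other replicates, with 1 replicate left out, numbered 29 to 32, with a median spacing of 1456 to 1952.5 bp. Without replicate 1, 2 or 3 these lists held 5642, 5815 and 5695 summits in all, so fewer summits enter each count. No paired analysis was possible because there was 1 group. The unknown depth sets how many weak summits could be called.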
